A study of Homo sapiens with 8 samples.

Results

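These 10 human genes, of 18656 listed, were chosen because their RNA was lower at 72 h of TCF7L2 silencing than in control cells and because their 3′ untranslated region (3′ UTR) holds a short word that went with lower levels across genes. They are PM20D2, PLEKHA2, PEA15, GRPEL2, TBC1D16, ARL6IP6, KCTD9, MAP2K6, UPF3A and ABCD3. They were proposed as candidates for genes that the silencing RNA itself acts on through partial pairing. The choice used the levels at 72 h and 0 h, so those levels are given as a description with no test. The comparison of 48 h with 24 h is between libraries in which that fall was not measured, and it carries the tests. The spread behind its p-values was estimated over all 8 libraries. The sources used here do not say which comparison led to the word, so the word may rest on the 24 h and 48 h libraries too.

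The cells were SW480, an established line from a human colorectal cancer, into which small interfering RNA (siRNA) was brought with the lipid RNAiMAX. There were 2 libraries each of cells with an siRNA against TCF7L2 for 24 h, 48 h and 72 h, and 2 with a negative-control siRNA under the time 0 h. All groups thus carried an siRNA. Against 0 h, effects of the TCF7L2 siRNA, of loss of TCF7L2 and of the hours since its delivery cannot be told apart. The labels speak of more treated replicates than the 2 per group analysed here. Total RNA was sequenced after removal of ribosomal RNA, and levels are TPM, shares of the RNA corrected for transcript length and scaled to a common total. TPM holds no read depth, so the counting error of a level could not be computed. Nothing states that replicates came from separate cultures, and p-values may then reflect technical spread alone.

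An siRNA guides an Argonaute protein to RNA. Near-perfect pairing leads to cutting of the intended RNA, while pairing of the guide's seed (its bases 2 to 8) with a 3′ UTR is known to lower the levels of other RNAs, in the way that a microRNA does. Such seed pairing is often strongest where the matched 7 bases are followed by an A. The sources used here do not give the siRNA's sequence, so no site below could be matched to it, and whether any change came from the siRNA, from loss of TCF7L2 or from time was not tested.

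The 3′ UTRs of the 10 genes shared 1 word of 8 bases, ACTAGATA, and no word of 9 bases, so the first is taken here as the word. The longest annotated 3′ UTR of each gene in GENCODE release 29 was searched, on the strand of the RNA only. That word stood in the longest 3′ UTR of 226 of 11762 genes (1.92%), and its first 7 bases, ACTAGAT, in 869 (7.39%). The 10 genes held 11 copies of the 8-base word and 1 further copy of the first 7 bases alone. The sites follow with 11 bases on each side, as GENCODE transcript sequence with GRCh38 coordinates, to let the flanks be compared. Capitals mark the word.
PM20D2, chr6:89165316-89165345, plus strand: gttatctttgtACTAGATAgcaacccttta
PEA15, chr1:160214459-160214488, plus strand: aacccttctttACTAGATAtcctggccccc
GRPEL2, first site, chr5:149351805-149351834, plus strand: ttgtaatcccaACTAGATAggctttatgct
GRPEL2, second site, chr5:149352834-149352863, plus strand: aatgaagaacaACTAGATAttaatgtcaat
TBC1D16, chr17:79938530-79938559, minus strand: cctagcatttcACTAGATAcctcgtgcctt
ARL6IP6, chr2:152760833-152760862, plus strand: ggtattttgatACTAGATAttaaaaactac
MAP2K6, chr17:69547528-69547557, plus strand: aactctgattaACTAGATAtgtagagttct
UPF3A, chr13:114305617-114305646, plus strand: ggaagggataaACTAGATAtagcatacaga
ABCD3, chr1:94517244-94517273, plus strand: gcaacaaattaACTAGATAcagaataatgg
PLEKHA2 and KCTD9 held 1 copy each, 3864 and 227 bases after the stop codon. Beyond the word the flanks differed from gene to gene, and their content of A and T over the 22 flanking bases of the first site ran between 40.9% and 77.3% (median 59.1%), against 27.3 to 100% (median 63.6%) in the other 216 genes with the 8-base word.

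TCF7L2, the targeted gene, encodes a TCF/LEF transcription factor of the Wnt pathway. It held the first 7 bases of the word once, in 13 of 15 annotated protein-coding transcripts, and the 8-base word in 0. The copy lay within the coding sequence of 7 transcripts, across the stop codon of 4 and in the 3′ UTR of 2. Of all genes, 3.81% held ACTAGAT in their longest coding sequence and 7.39% in their longest 3′ UTR. The share with it in any part of any transcript, as searched in TCF7L2, was not computed. The TCF7L2 copy is printed because the siRNA was designed against this RNA, with the first 7 bases of the word in capitals.
TCF7L2, chr10:113165619-113165647, plus strand: gatggaagcttACTAGATtcgcctccccc
Over the 12 bases before the word, the first site of the 10 genes matched TCF7L2 at 2 to 7 positions (median 3.5), and that of the other genes with the 8-base word at 0 to 7 (median 3). Among 2351 distinct mature human microRNA sequences in RefSeq's GRCh38.p14 table, 0 carried the seed AUCUAGU, which would pair with ACTAGAT.

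**Figure D1:**
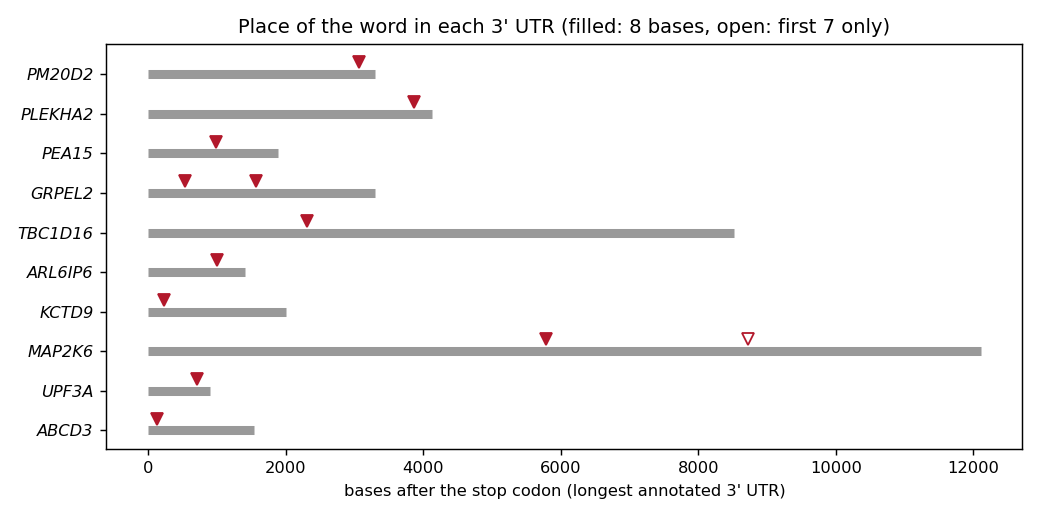
Place of the word along the longest annotated 3′ UTR of each gene, in bases after the stop codon (grey bar, full length; filled triangle, all 8 bases; open triangle, first 7 bases alone). The 8-base word lay between 126 bases after the stop codon in ABCD3 and 5786 in MAP2K6, and GRPEL2 and MAP2K6 held 2 sites each, the second of MAP2K6 with 7 bases at 8728.

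The 10 genes had 3′ UTRs of 900 (UPF3A) to 12108 bases (MAP2K6), with a median of 2660, against a median of 1360 over all genes and of 4210 over the other genes with the 8-base word. In ARL6IP6, KCTD9 and PM20D2 the only annotated protein-coding transcript held the word. In the other 7 genes some annotated transcripts lack it in their 3′ UTR, as in PLEKHA2, where 1 of 4 transcripts held it, and GRPEL2 and MAP2K6, where 1 of 3 did. Levels were deposited per gene, so which transcript changed was not tested.

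By the size of the difference between 72 h and 0 h, the 10 genes took places 2 to 12 among the 226 genes with the 8-base word. COX7C (place 1), a cytochrome c oxidase subunit, and DDX21 (place 5), an RNA helicase, were not among them. ABCD3 was just inside at a log2 difference of -1.0 and APBB2 just outside at -0.99.

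A library at 72 h stood apart. TPM over the listed genes summed to 352455.7 in the second 72 h library and to between 448107.5 and 485601.5 in the other 7. Each library was therefore divided by its median ratio to the average profile (0.8184 for that library, 0.9823 to 1.067 for the others) before changes were computed, while levels are printed as deposited. The median log2 change of all 11894 genes kept was -0.02 with that step and 0.07 without it between 48 h and 24 h, and -0.02 with it and -0.19 without it between 72 h and 0 h. The median of the 10 genes between 72 h and 0 h was -1.12 without the second 72 h library and -1.18 without the first. All 7 epithelial markers were present (CDX2 at 4.42 TPM or more, KRT18 at up to 1484.77 TPM), and of 9 markers of other cell types only CD68, a lysosomal protein, was above 4 TPM in any library (2.15 to 21.79).

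The targeted gene was lower in the TCF7L2 siRNA libraries. TCF7L2 had 6.86 and 7.47 TPM at 0 h, 5.82 and 5.05 at 24 h, 4.92 and 4.07 at 48 h, then 4.07 and 3.53 at 72 h. Every library with the TCF7L2 siRNA lay below both control libraries. Set against 0 h after scaling, its log2 change at 24 h was -0.26 ± 0.11 (SE, limma adjusted p = 0.286). At 48 h it was -0.57 ± 0.11 (adjusted p = 0.00653). The change reached -0.61 ± 0.11 at 72 h (adjusted p = 0.00151). Leaving out the second 48 h library ended the call at 48 h (-0.46, adjusted p = 0.0524). Of all 11894 genes 51 fell and 73 rose at 24 h. At 48 h 1433 fell and 1350 rose. The shares at 72 h were 28.0% lower and 24.2% higher. Between 48 h and 24 h the change of TCF7L2 was -0.31 ± 0.11 (adjusted p = 0.0972), and between 72 h and 48 h -0.04 ± 0.11.

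The lowest value of any of the 10 genes in any library was 3.97 TPM. Each therefore passed the filter on low levels, which asked for 1 TPM in 2 libraries or more, without regard to group. By scaled level, they stood at 79.4% (PEA15) to 109.6% (PLEKHA2) of their 0 h mean at 24 h, at 57.1% (PEA15) to 88.8% (MAP2K6) at 48 h and at 29.4% (PM20D2) to 49.0% (UPF3A) at 72 h. Against 0 h, the 10 genes had median log2 differences of -0.15 (24 h), -0.39 (48 h) and -1.13 (72 h). The median over all genes was 0.00 (24 h), -0.02 (48 h) and -0.02 (72 h). These 3 differences share the 0 h libraries, and the 72 h one was used to choose the genes. At 72 h it ran between -1.63 (PM20D2) and -1.0 (UPF3A and ABCD3), with -1.43 for PLEKHA2, -1.30 for PEA15 and -1.06 to -1.18 for the other 5. Between 72 h and 48 h the median was -0.81, against 0.00 over all genes. Both 72 h libraries lay below the other 6 in 10 of 10 genes, as they did in 30.1% of all genes, and nothing is read from that count.

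**Figure D2:**
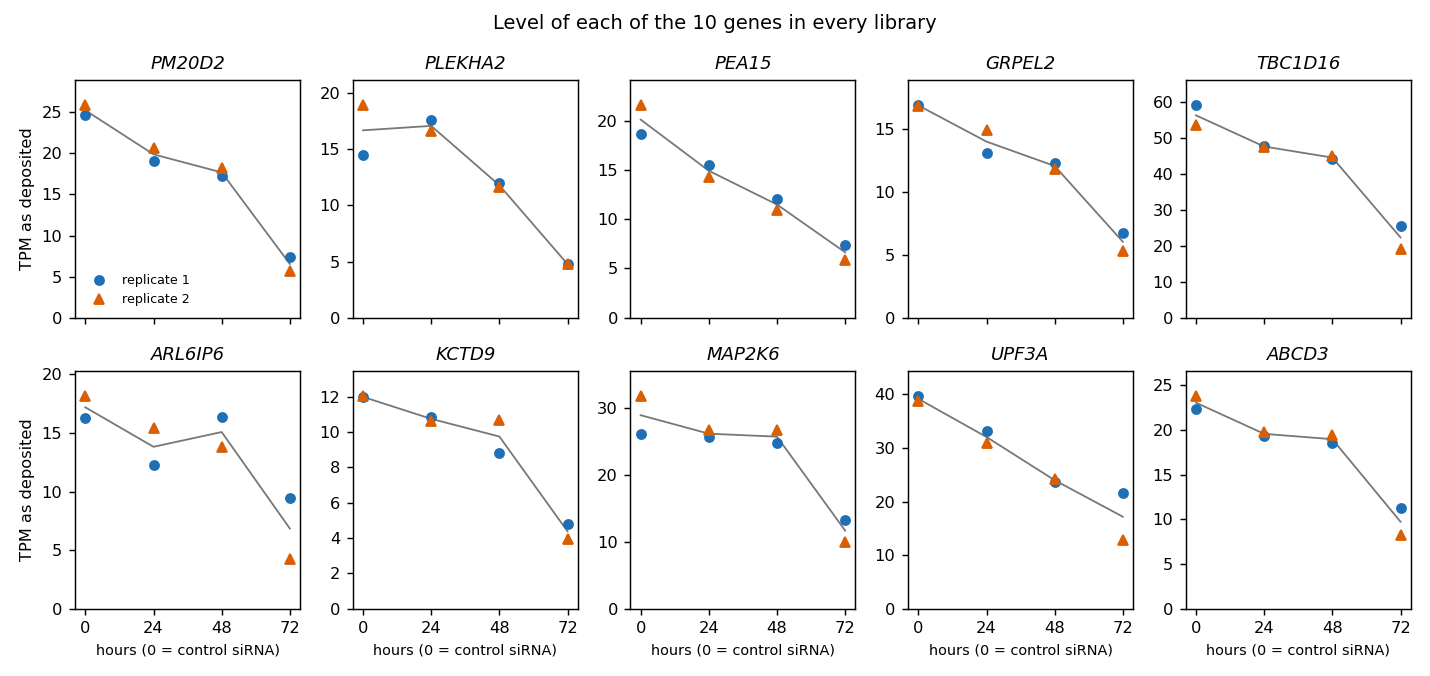
TPM as deposited of each gene (vertical axis, from 0) against hours of TCF7L2 siRNA, with the negative-control siRNA at 0 h. Points are the 2 libraries of a group and the line joins their means. All 10 genes are lowest at 72 h, and UPF3A, PEA15 and PLEKHA2 are already lower at 48 h than at 24 h.

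Between 48 h and 24 h, 5 of the 10 genes fell and 0 rose: PLEKHA2, UPF3A, PEA15, GRPEL2 and PM20D2. At an unadjusted p under 0.05, 7 were lower and 0 higher, where 1908 of all 11894 genes were lower and 1635 higher. Over all 11894 genes tested 7.15% fell and 7.22% rose (limma, Benjamini-Hochberg adjusted p under 0.05, two-sided). Genes picked for a fall at 72 h may be partway down at 48 h. The share among genes with a like fall at 72 h was not computed, so all genes are not a matched background. The median log2 change was -0.24 over the 10 genes and -0.02 over all genes, and 9 of the 10 changes were negative, as were 6416 of the 11894. After scaling, both 48 h libraries lay below both 24 h libraries in 9 of the 10 genes, against 32.9% of all genes, and in TPM as deposited in 6, against 18.0%. The count of 5 rests on small margins. It was 1 (PLEKHA2) on TPM as deposited, where 85 of the 11894 genes fell. It was 2 (UPF3A and PEA15) with no filter on low levels, 3 (PLEKHA2, UPF3A and PEA15) with the replicate number as a block or when only the 24 h and 48 h libraries were fitted, and 0 without the first 24 h library or without the second 48 h library. Leaving out the first 48 h library gave 1, the second 24 h library 2 and either 0 h library 3.

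The first of 3 groups by role carries signals from the cell surface. PLEKHA2, or TAPP2, is an adaptor that binds the membrane lipid phosphatidylinositol 3,4-bisphosphate. It had 14.45 and 18.92 TPM at 0 h, 17.57 and 16.59 at 24 h, 11.95 and 11.64 at 48 h, then 4.74 and 4.80 at 72 h. The 24 h libraries lay within the range of the controls, and the 48 h libraries below both. The log2 change of PLEKHA2 between 48 h and 24 h, -0.59 ± 0.13 (limma adjusted p = 0.0171), was the largest drop among the 10 genes. It was the only one of them not below its 0 h level at 24 h, with a log2 difference of 0.13 ± 0.13. The drop was between -0.63 and -0.46 under all 17 alternative settings, but the call was lost without either 24 h library (adjusted p = 0.102 and 0.0672) or either 48 h library (0.0707 and 0.0911), and with no filter (0.0571).

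PEA15 is a death effector domain protein that binds ERK kinases and the adaptor FADD. It had 18.65 and 21.57 TPM at 0 h, 15.50 and 14.33 at 24 h, 12.01 and 10.96 at 48 h, then 7.42 and 5.84 at 72 h. No library of a group overlapped one of another group, in order of time. The fall between 48 h and 24 h was -0.44 ± 0.09 (adjusted p = 0.0117), and it was the gene with the lowest level relative to 0 h at both 24 h and 48 h. Its call was lost on TPM as deposited (-0.35, adjusted p = 0.25), without the first 24 h library (adjusted p = 0.088) and without the second 48 h library (0.0837).

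MAP2K6 encodes MKK6, a kinase that activates the p38 MAP kinases. It had 26.15 and 31.83 TPM at 0 h, 25.66 and 26.78 at 24 h, 24.76 and 26.79 at 48 h, then 13.34 and 10.05 at 72 h. As deposited, the levels at 24 h and 48 h overlapped, and the scaled log2 change between them was -0.12 ± 0.09 (adjusted p = 0.409). Most of its difference lay after 48 h, with -0.90 ± 0.09 between 72 h and 48 h.

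A second group works in mitochondria, peroxisomes and metabolism. GRPEL2 is a nucleotide exchange factor for the mitochondrial HSP70 chaperone, and its 3′ UTR holds the 8-base word at 2 places. It had 16.87 and 16.84 TPM at 0 h, 13.08 and 14.88 at 24 h, 12.29 and 11.80 at 48 h, then 6.72 and 5.33 at 72 h. Each later group lay below the one before. GRPEL2 changed by -0.29 ± 0.08 between 48 h and 24 h (adjusted p = 0.0485), a call kept in 3 of 17 alternatives and lost in each one that left out a library (adjusted p from 0.0506 to 0.253). GRPEL2 has 3 annotated pseudogenes, with which it may share reads.

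PM20D2 is a peptidase-family enzyme that in mouse hydrolyses unusual dipeptides formed beside carnosine. It had 24.63 and 25.87 TPM at 0 h, 19.10 and 20.68 at 24 h, 17.21 and 18.17 at 48 h, then 7.39 and 5.69 at 72 h. Here too the groups followed each other without overlap. The change between 48 h and 24 h was -0.25 ± 0.07 (adjusted p = 0.046), and it held in 5 of 17 alternatives. Leaving out either 0 h library (adjusted p = 0.0706 and 0.0713), either 24 h library (0.0782 and 0.227) or either 48 h library (0.195 and 0.117) ended the call.

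ABCD3, or PMP70, is a half-transporter of the peroxisomal membrane that imports acyl-CoA. It had 22.31 and 23.75 TPM at 0 h, 19.29 and 19.80 at 24 h, 18.47 and 19.43 at 48 h, then 11.21 and 8.23 at 72 h. The 24 h and 48 h libraries overlapped as deposited, and the log2 change was -0.14 ± 0.07 (adjusted p = 0.221).

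The third group holds factors of membrane traffic, ubiquitin ligases and RNA decay. UPF3A takes part in nonsense-mediated decay of RNA, where it binds the exon junction complex. It had 39.66 and 38.70 TPM at 0 h, 33.12 and 30.99 at 24 h, 23.69 and 24.27 at 48 h, then 21.53 and 12.81 at 72 h. Its groups did not overlap, but its 72 h libraries lay farther apart than those of its other groups. UPF3A changed by -0.50 ± 0.10 between 48 h and 24 h (adjusted p = 0.0132). Between 72 h and 48 h the difference was -0.32 ± 0.10, the smallest of the 10 genes. The call was lost on TPM as deposited (adjusted p = 0.14), without the first 24 h library (0.0895) and without either 48 h library (0.0709 and 0.0659). UPF3A has 3 annotated pseudogenes and is uncertain for that reason.

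TBC1D16 is a GTPase-activating protein of Rab GTPases in the endocytic pathway, and it had the highest TPM of the 10 genes. It stood at 58.97 and 53.36 TPM at 0 h, 47.58 and 47.44 at 24 h, 44.13 and 44.74 at 48 h, then 25.50 and 19.01 at 72 h. The groups did not overlap and each later one was lower. The change between 48 h and 24 h, -0.19 ± 0.06, missed the threshold (adjusted p = 0.0719). KCTD9 is a BTB-domain protein that acts with the ubiquitin ligase scaffold CUL3, and it has 6 annotated pseudogenes. KCTD9 had 11.96 and 12.03 TPM at 0 h, 10.87 and 10.63 at 24 h, 8.80 and 10.70 at 48 h, then 4.79 and 3.97 at 72 h, and 1 of its 48 h libraries lay within the 24 h range. Its change between 48 h and 24 h was -0.22 ± 0.09 (adjusted p = 0.146).

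ARL6IP6 is a membrane protein that interacts with the small GTPase ARL6. It had 16.24 and 18.13 TPM at 0 h, 12.25 and 15.38 at 24 h, 16.34 and 13.81 at 48 h, then 9.45 and 4.23 at 72 h. It had the largest SE of the 10 genes, and its 48 h levels overlapped both those at 24 h and those at 0 h. The change between 48 h and 24 h was 0.03 ± 0.20 (adjusted p = 0.94), the only one above 0. It turned to -0.13 without the first 24 h library and to -0.09 without the first 48 h library.

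**Figure D3:**
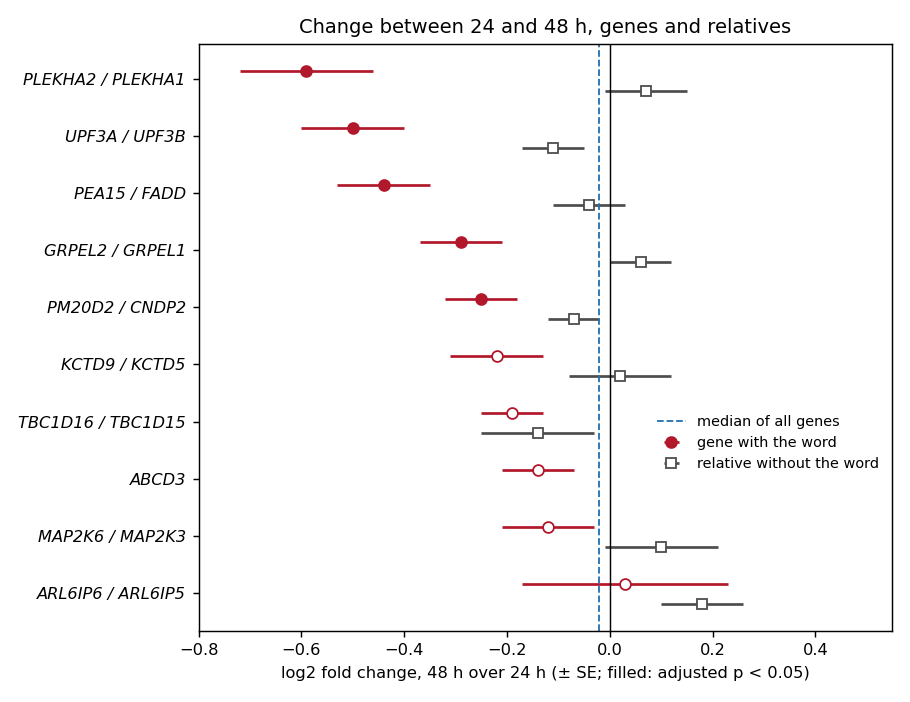
Log2 fold change of 48 h over 24 h (horizontal axis, ± SE) for each of the 10 genes (circles), 9 of them above a relative or partner (squares); filled symbols had an adjusted p under 0.05 and the dashed line is the median of all genes, -0.02. The genes lie between -0.59 and 0.03 with 5 filled, and the relatives between -0.14 and 0.18 with 0 filled. By the same test 7.15% of all genes fell and 7.22% rose. The 10 genes were chosen for a fall at 72 h and the relatives were not, and the difference between them was not tested.

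A family member or partner was set beside 9 of the genes: CNDP2, PLEKHA1, FADD, GRPEL1, TBC1D15, ARL6IP5, KCTD5, MAP2K3 and UPF3B. The word, in 8 or 7 bases, was in the longest 3′ UTR of 0 of these 9. Between 48 h and 24 h 0 of them passed the limma test, with log2 changes between -0.14 ± 0.11 (TBC1D15) and 0.18 ± 0.08 (ARL6IP5). By the same test 7.15% of all genes fell and 7.22% rose. At an unadjusted p under 0.05, 0 of the 9 were lower and 1 higher (ARL6IP5), against 1908 lower and 1635 higher of all 11894 genes. GRPEL1, the other exchange factor of mitochondrial HSP70, changed by 0.06 ± 0.06, and UPF3B by -0.11 ± 0.06 (adjusted p = 0.551 and 0.288). Between 72 h and 0 h, 44.4% of the 9 fell and 11.1% rose, against 28.0% and 24.2% of all genes. CNDP2 (-0.25 ± 0.05), PLEKHA1 (-0.29 ± 0.08), TBC1D15 (-0.37 ± 0.11) and MAP2K3 (-0.41 ± 0.11) fell. ARL6IP5 (0.51 ± 0.08) rose (limma adjusted p between 0.000442 and 0.0156 for all of these). On TPM as deposited 4 fell and 0 rose, while 1 fell without the first 72 h library and 2 without the first 0 h library. With any single library left out, 1 rose. The difference between a gene and its relative was not tested.

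In the wider list of 74 relatives and partners 71 genes were kept. Between 48 h and 24 h 7 of the 71 fell and 4 rose (9.86% and 5.63%), with a median log2 change of -0.01, near the shares over all genes. Of the 7 that fell, TIMM44 (-0.38 ± 0.06, adjusted p = 0.00374) and HSPA9 (-0.24 ± 0.04, adjusted p = 0.00748) belong to the mitochondrial import motor that GRPEL2 serves, and MAPK12 (-0.37 ± 0.06, adjusted p = 0.00557) is a p38 kinase. ABCD4, a relative of ABCD3, fell by 0.32 ± 0.06, and SMG5, a nonsense-mediated decay factor, by 0.25 ± 0.05 (adjusted p = 0.0097 and 0.0133). SCP2, a peroxisomal lipid carrier and thiolase gene, rose by 0.31 ± 0.06 (adjusted p = 0.0113). These 6 calls were lost on TPM as deposited. The call of HSPA9 was also lost without the first 24 h (adjusted p = 0.0511) or second 48 h library (0.0696), that of ABCD4 without the same libraries (0.0621 and 0.0739), that of SCP2 without the first 24 h or first 48 h library (0.0847 and 0.0815), and that of SMG5 without either 24 h library (0.0815 and 0.0593) or the first 48 h library (0.0942). Between 72 h and 0 h 18 of the 71 fell and 16 rose (25.4% and 22.5%), against 28.0% and 24.2% of all genes, with a median of 0.02.

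The word itself was then followed across all genes. Each of the 16384 words of 7 bases was given the mean log2 change of genes with the word in their longest 3′ UTR minus that of genes without it, after regression on UTR length and GC content. Between 48 h and 24 h ACTAGAT had a difference of -0.061, the lowest of 11409 words present in at least 500 genes, and CTAGATA, the last 7 bases of the shared word, followed with -0.058. The third lowest, GCTAGAT, had -0.033 and shares 6 bases with both. Among all 16384 words ACTAGAT was in place 20, behind words in fewer than 500 genes. With the difference scaled for the numbers of genes with and without each word, it was in place 1. The same difference was -0.149 between 72 h and 0 h (place 1 of 11409, the contrast the choice used), -0.068 between 48 h and 0 h (place 2) and -0.006 between 24 h and 0 h (place 587). Between 24 h and 0 h CTAGATA had -0.013 (place 47).

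**Figure D4:**
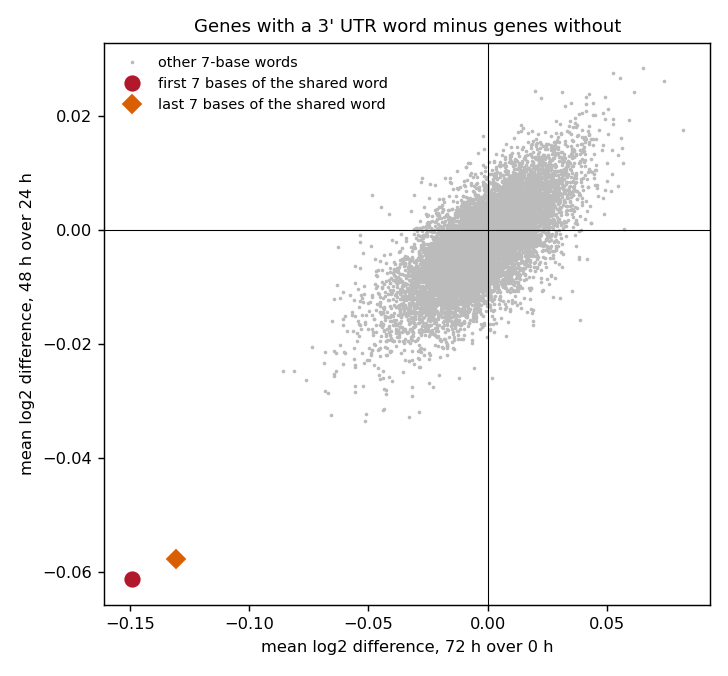
Each point is a 7-base word found in at least 500 genes, placed by the mean log2 difference between genes with and without it at 72 h over 0 h (horizontal axis) and at 48 h over 24 h (vertical axis), which share no library. The first and last 7 bases of the shared word, at -0.149 and -0.061 and at -0.131 and -0.058, have the lowest values on the vertical axis. The horizontal axis is the contrast used in the choice and is shown as a description.

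Genes with the word were then counted by the test of single genes. Of the 869 genes with ACTAGAT, 7.94% fell and 4.72% rose between 48 h and 24 h, and of the 859 without the 10 genes, 7.45% and 4.77%. The share that fell is close to that of all genes. On TPM as deposited 3 of the 869 fell. Of the other 216 genes with the 8-base word, 8.33% fell and 3.24% rose, with a median log2 change of -0.06, which was -0.09 after regression on UTR length and GC. Genes with the middle 6 bases alone had a median of -0.02 and genes with none of these parts -0.01 on that same scale. Genes with ACTAGAT in the longest coding sequence and not in the 3′ UTR (389) had 10.3% lower and 3.86% higher. Their median change was -0.06, which was -0.09 after that regression. The 869 genes with ACTAGAT in the 3′ UTR had -0.06 after it.

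**Figure D5:**
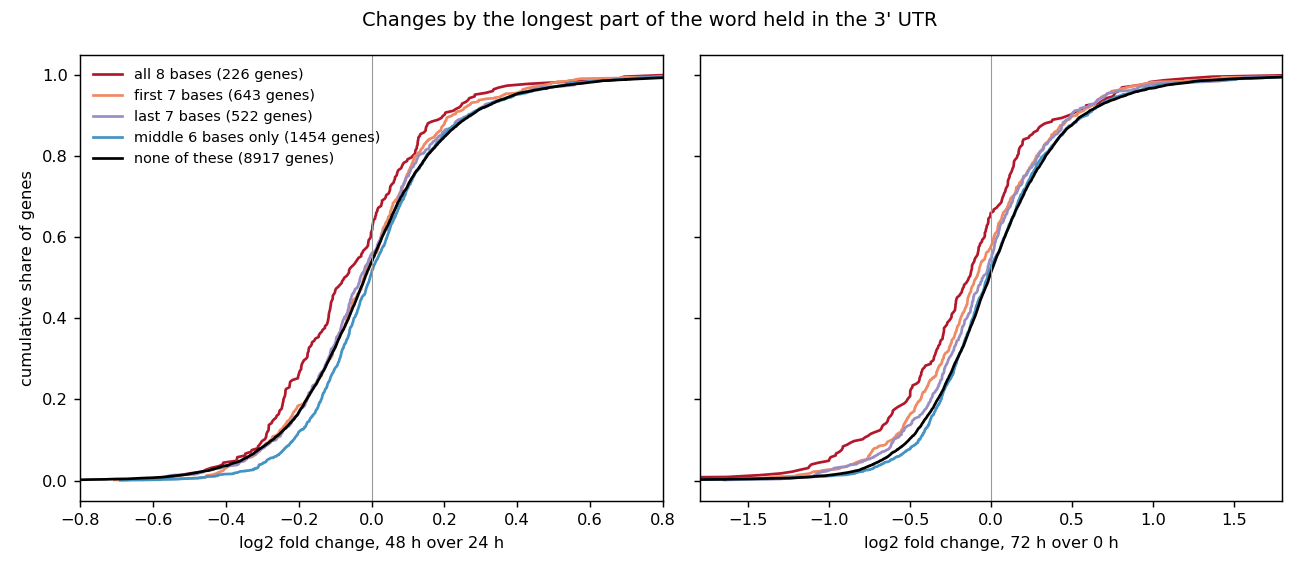
Cumulative share of genes (vertical axis) by log2 fold change (horizontal axis, central range shown) at 48 h over 24 h and at 72 h over 0 h, for genes grouped by the longest part of the word in their 3′ UTR. The 226 genes with all 8 bases lie to the left of the other groups over most of the range, with medians of -0.07 and -0.13 against -0.02 and -0.01 in genes with no part of the word. They include the 10 genes, without which the medians were -0.06 and -0.12, and the contrast of 72 h with 0 h was used in the choice.

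Among the other genes with the word, low changes between 48 h and 24 h were those of CLGN (-0.60 ± 0.10), OGT (-0.55 ± 0.05), RGPD5 (-0.53 ± 0.25), COX7C (-0.53 ± 0.05) and SMG1 (-0.46 ± 0.11). Over the 859 genes with ACTAGAT besides the 10, 7.45% fell, against 7.15% of all genes. The 5 were picked for low changes in this same comparison, so nothing is read from how many passed. Of these 5, 4 passed the limma test (adjusted p between 0.000261 and 0.0193). RGPD5 did not (adjusted p = 0.198, or 0.0492 without the first 48 h library). It belongs to a family of near-identical copies and is uncertain, as is SMG1, which has copies of its own. CLGN kept the call in all 17 alternatives. OGT and COX7C lost it on TPM as deposited (limma adjusted p = 0.0944 and 0.118). SMG1 lost it in 5 of 17 alternatives, among them TPM as deposited (adjusted p = 0.199) and leaving out the first 24 h or either 48 h library. The change of SMG1 was -0.62 to -0.30 with 1 library left out. OGT, the O-GlcNAc transferase, holds all 8 bases and had 137.90 and 133.96 TPM at 48 h, against 193.82 and 178.71 at 24 h. CLGN, which holds the first 7 bases only, had 6.27 and 6.97 TPM at 48 h, against 9.29 and 10.4 at 24 h. COX7C, with all 8 bases, had 168.20 and 170.30 TPM at 48 h, against 225.14 and 231.25 at 24 h.

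Of the small RNA machinery, AGO1, an Argonaute, holds all 8 bases and had 9.95 and 9.12 TPM at 48 h, against 10.89 and 10.43 at 24 h (log2 change -0.24 ± 0.09, adjusted p = 0.0998). AGO3 holds them too, with a change of -0.10 ± 0.08 (adjusted p = 0.485), and TNRC6A, an Argonaute partner without the word, rose by 0.37 ± 0.09 (adjusted p = 0.0231), a call lost on TPM as deposited (0.0697) and without either 24 h (0.135 and 0.0624) or either 48 h library (0.0788 and 0.128).

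The mean profile of the 10 genes over the 8 libraries, each gene standardized, was most like those of CCT8 (Pearson r = 0.998), BCL2L1 (0.997), ROCK2 (0.997), SLC25A15 (0.997) and DNAJC9 (0.996), among genes with a mean TPM of 5 or more. CCT8, a chaperonin subunit, averaged 105 ± 23.7 TPM at 72 h, against 231 ± 11.8 TPM at 0 h (SD, n = 2 each). CCT8 and BCL2L1 hold ACTAGAT in their longest 3′ UTR, as do 7.39% of all genes, and ROCK2, SLC25A15 and DNAJC9 do not. The 10 genes themselves correlated with the profile at 0.906 (ARL6IP6) to 0.996. These values rest on 8 libraries in 4 groups ordered by time, and they describe likeness of pattern only. The profile includes the 72 h and 0 h libraries used in the choice, so nothing is read from how many like genes hold ACTAGAT.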

How the data were processed

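Total RNA of SW480 cells was sequenced in 8 libraries, 2 for each of 4 groups. The authors deposited TPM per gene, made with RSEM and the hg19 build, with STAR, Trimmomatic, FastQC, Picard and SAMtools also named, per the submitters' processing notes. The sources used here give neither versions nor the annotation, and the depth is unknown.

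From these, log2(TPM + 1) after median-ratio scaling was fitted with limma 3.58.1 in R 4.3.3 to all libraries (4 residual and 5.48 prior degrees of freedom, mean-variance trend), for the 11894 genes that reached 1 TPM in 2 libraries or more. Fold changes are on that log2 scale and understate changes of low genes. Scaling was preferred since unscaled values gave infinite prior degrees of freedom. The fit was tested on simulated data. UTRs of 50 bases or more came from GENCODE 29 (GRCh38), a build other than the authors', matched by symbol.

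The genes, lists and rules were chosen with earlier results of these data known. Named genes were the 10, TCF7L2, a relative for each, the 6 list members with the smallest p, the 6 lowest other genes with the word, and the 5 most like profiles, while DDX21 and APBB2 were named after their values were seen. A few genes that this rule takes are not reported here. Alternatives were other scalings, pseudocounts, filters and variance models, fits to fewer groups, the replicate block, other UTRs and words, and leaving out each library. Ranking words in at least 500 genes, adjusting medians for length and GC, and leaving out the 10 genes were added after seeing the data.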

Additional observations from a re-analysis of the deposited data

How the results depend on the processing

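The count of the 10 genes that fell between 48 h and 24 h, 5, was 1 on TPM as deposited, 2 with no filter, 3 under quantile normalization, without a mean-variance trend, in the fit to the compared groups alone and with the replicate block, and 0 to 4 when 1 library was left out. It stayed at 5 with pseudocounts of 0.1 and 5 and with a minimum TPM of 5. The change was negative in all 17 alternatives for 9 of the 10 genes, while that of ARL6IP6 was 0.03 with all libraries, -0.13 and -0.09 without the first 24 h or the first 48 h library, and 0.19 at the most. Over all genes between 48 h and 24 h, 850 fell and 859 rose, against 85 and 512 on TPM as deposited and 550 falls with no filter, and between 244 and 1001 fell and 362 and 1009 rose with a library left out. On TPM as deposited 1253 genes rose between 72 h and 0 h, against 2880, and leaving out a library gave 2624 to 3272 falls and 2276 to 2843 rises. Of the relatives and partners, 0 fell and 1 rose between 48 h and 24 h on TPM as deposited, and 5 rose between 72 h and 0 h. With a library left out 2 to 7 fell and 1 to 5 rose between 48 h and 24 h, and 13 to 18 fell and 12 to 15 rose between 72 h and 0 h. Of the 869 genes with ACTAGAT 69 fell (7.94%). That count was 3 on TPM as deposited, 39 with no filter and 17 to 86 without 1 library. Other choices of UTR or word changed the number of genes in the set too. With the shortest 3′ UTR 32 of 285 fell (11.2%), and with all 8 bases 23 of 226 (10.2%). With the middle 6 bases 172 of 2845 fell (6.05%), against 7.15% of all 11894 genes. The differences between these shares were not tested. The median of the 10 genes against 0 h was -1.13 at 72 h (-1.30 on TPM as deposited, -1.15 under quantile normalization, -1.24 and -0.88 with pseudocounts of 0.1 and 5, -1.19 to -1.12 without 1 library), -0.39 at 48 h (-0.37 under quantile normalization, -0.41 and -0.33 with pseudocounts of 0.1 and 5, -0.41 to -0.34 without 1 library) and -0.15 at 24 h (-0.25 on TPM as deposited, -0.17 to -0.08 without 1 library). The 72 h call of TCF7L2 held in all 17 alternatives (-0.67 to -0.55 without 1 library). The cause of these shifts was not tested. A lone library was assumed to vary like the other groups.

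The replicate numbers showed little pairing of the samples: deviations of same-numbered libraries correlated at -0.0859 to 0.107 between groups, negative between 24 h and 72 h. Whether same-numbered libraries were made together cannot be told from these values. With the replicate block, the calls of GRPEL2 (adjusted p = 0.0636) and PM20D2 (adjusted p = 0.0502) were lost. Read depth is unknown, so what it limits could not be computed.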
